A study of Rattus norvegicus with 6 samples.

Results

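Small leucine-rich proteoglycans are secreted matrix proteins of connective tissue. The genes examined were Dcn (decorin), Bgn (biglycan), Aspn (asporin), Lum (lumican), Fmod (fibromodulin), Prelp (prolargin), Omd (osteomodulin), Ogn (osteoglycin) and Podn (podocan). Of these 9 genes, 8 were found by symbol among the 26195 named genes of the count table and all 8 passed the filter on low counts, which kept 13139 genes. Podn was not matched by its symbol or a RefSeq synonym and was not analysed here. The genes were chosen by family and with values of the comparison of older with younger tumors already known, so that comparison is given for them as a description, without a test.

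RNA came from 6 mammary tumors that arose in F344 rats, an inbred strain. Tumors 102, 107 and 116 were of the older group (n = 3), and tumors 157, 158 and 167 of the younger group (n = 3). The older rats were acquired at 19 to 21 months of age and the younger ones at 6 to 8 weeks, and both were kept in the facility before treatment. Every rat, in both groups, received DMBA, a mammary carcinogen, by gavage at 65 mg per kg and carried a subcutaneous pellet of 50 mg of MPA, a progestin, so that both agents are shared by the groups. The older tumors had been picked for having enough tissue, all tumors are bulk tissue, and by the study's account each tumor came from its own rat. The younger rats came from a commercial breeder (Envigo) and the older ones from the colonies of the National Institute on Aging, so that age and source of the animals cannot be told apart.

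Each protein has a core of leucine-rich repeats that binds collagen, and most members carry sulfated sugar chains. In connective tissue they set the width and spacing of collagen fibrils, and several bind growth factors or cell surface receptors. Decorin, biglycan and asporin form class I, lumican, fibromodulin, prolargin and osteomodulin belong to class II, and osteoglycin belongs to class III. In the mammary gland and its tumors, fibroblasts of the stroma are the best known source of decorin and lumican. In bulk tumors, fewer cells of a type and less RNA per cell cannot be told apart.

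Several of these genes lie side by side in the rat genome. In the RefSeq gene order of assembly GRCr8, Dcn is followed by Lum, Prelp by Fmod, and Ogn by Omd and then Aspn, with no other protein-coding gene between them, while Bgn stands alone on chromosome X. RefSeq promoter sequences were at hand for 5 of the 8 measured genes, and for 2 of them, Fmod and Omd, the 250 bases before the start lay wholly outside the gene. These 2 are printed for that reason. Both genes are neighbours of another member, as are Lum, Ogn and Aspn, whose stretches are not printed. Over the 6 tumors, log2 CPM of Fmod and its neighbour Prelp had a Pearson's r of 0.81 and a Spearman's rho of 0.49. For Omd and its neighbour Ogn the r was -0.72 and the rho -0.09, and r was 0.27 without tumors 102 and 157. The Fmod stretch is chr13:48045317-48045566 on the plus strand and the Omd stretch is chr17:15274871-15275120 on the minus strand, both in GRCr8, written 5′ to 3′ with the GC box letters GGGCGG in capitals.
Fmod: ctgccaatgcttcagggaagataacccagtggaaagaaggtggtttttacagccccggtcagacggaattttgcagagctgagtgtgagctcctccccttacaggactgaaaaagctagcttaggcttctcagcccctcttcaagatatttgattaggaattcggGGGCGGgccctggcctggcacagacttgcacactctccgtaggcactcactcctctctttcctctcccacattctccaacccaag
Omd: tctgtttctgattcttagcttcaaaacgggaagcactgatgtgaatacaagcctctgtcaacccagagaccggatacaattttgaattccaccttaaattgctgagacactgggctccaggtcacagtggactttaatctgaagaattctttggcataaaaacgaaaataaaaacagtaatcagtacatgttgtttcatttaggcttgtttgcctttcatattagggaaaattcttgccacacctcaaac
Both strands were searched for GGGCGG, for TATAAA and for TGANTCA, and overlapping matches were counted. Fmod held 1 GGGCGG, from 85 to 80 bases before the start, and Omd held none of the 3 motifs. Of 33469 rat promoters of the same length, 30.5% held GGGCGG, 12.9% held TATAAA and 6.34% held TGANTCA. The Fmod stretch was 52.8% G or C and the Omd stretch 38.8%. These letters describe the sequence alone, and no binding was measured.

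The libraries were shallow. Totals ran from 3508571 counts in tumor 102 to 6525830 in tumor 158. Levels are given as CPM, a gene's counts scaled to a common library size over the named genes that passed the filter, after TMM correction. The floor, taken as 3 counts, corresponds to between 0.53 and 1.03 CPM (counting error only). Tumor 102 stood furthest from the rest, with a mean correlation of log2 CPM with the other tumors of 0.829 against 0.867 to 0.898 for the other 5. The epithelial markers, of which 9 of 10 were matched and tested, summed to between 1610 and 2310 CPM in the 6 tumors. Epithelial transcripts were thus seen in each tumor, but these sums do not give the type of lesion. Levels of different genes are not compared because gene lengths were not at hand.

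Decorin and lumican varied widely between tumors of the same age group, most of all among the older ones. Dcn, the main proteoglycan of dermal and mammary stroma, was at 168 CPM in tumor 102, 2.27 in tumor 107 and 63.3 in tumor 116, and at 25.5, 26.8 and 4.2 CPM in tumors 157, 158 and 167. The older group therefore held the highest and the lowest tumor, 73.9-fold apart, and the groups overlapped. Raw Dcn counts were 488, 10 and 316 in the older tumors and 144, 148 and 17 in the younger ones. The means were 77.9 ± 83.8 CPM (SD, n = 3) in older and 18.8 ± 12.7 CPM (SD, n = 3) in younger tumors, and the fitted log2 fold change, older minus younger, was 2.03 (standard error 1.2). Tumor 102 set much of that value, since without it the log2 fold change was 0.79, and without tumor 107 it was 2.6.

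Lumican, a collagen-binding keratan sulfate proteoglycan, followed decorin. Lum was at 21.7, 0.455 and 27 CPM in tumors 102, 107 and 116, and at 6.36, 11.8 and 1.23 CPM in tumors 157, 158 and 167. Tumor 107 had 2 Lum counts, under the floor of 3, and tumor 167 had 5, so the lowest tumor of each age group was the same for Lum as for Dcn. The means were 16.4 ± 14.1 CPM (SD, n = 3) in older and 6.45 ± 5.26 CPM (SD, n = 3) in younger tumors, with a log2 fold change of 1.32 (standard error 1.15) that ran from 0.73 without tumor 116 to 2.08 without tumor 158. The groups overlapped. The SD of log2 CPM, pooled over both groups, was 2.43 for Dcn and 2.22 for Lum, at percentiles 99.8 and 99.6 of all genes tested. In the older tumors alone the SD was 3.12 for Dcn and 2.77 for Lum (percentiles 99.9 and 99.7), and in the younger tumors alone it was 1.45 and 1.47 (percentiles 96.9 and 97.1).

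Over the 6 tumors, log2 CPM of Dcn and Lum had a Pearson's r of 0.96 and a Spearman's rho of 0.94, and r was 0.98 without tumors 102 and 107, the tumors furthest from the median of Dcn. This correlation, like the others here, is a description over 6 tumors in which both genes share the library and its total, and no p is given because the genes were chosen with these data known. Leaving aside tumor 107, with its 2 Lum counts, the ratio of Dcn to Lum counts ran from 2.27 in tumor 158 to 7.69 in tumor 102.

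**Figure D1:**
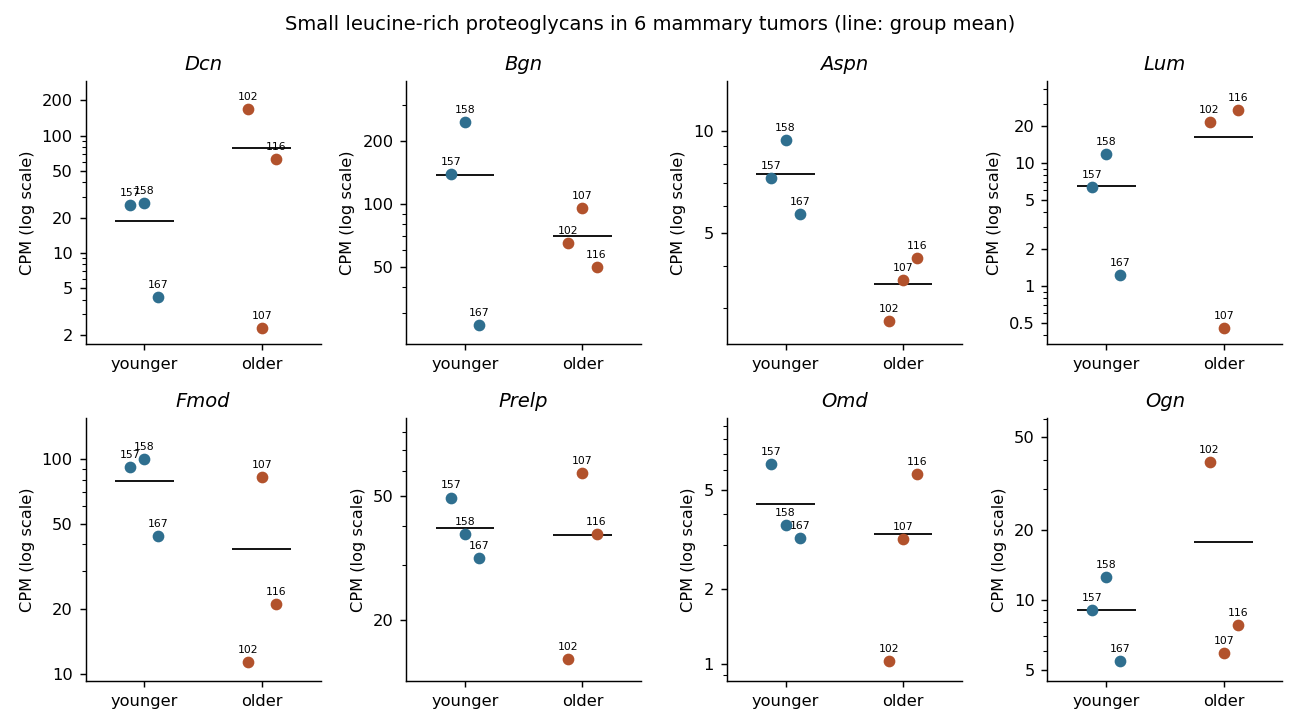
Level of each of the 8 measured small leucine-rich proteoglycans in CPM on a log scale, 1 point per tumor with its number, younger tumors on the left and older on the right of each panel, with a line at the group mean of CPM. Only Aspn has all 3 older tumors (2.75 to 4.21 CPM) below all 3 younger ones (5.68 to 9.41 CPM), while Dcn has both its highest tumor (168 CPM) and its lowest (2.27 CPM) in the older group.

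The fibroblast receptor gene Pdgfra ordered the tumors as decorin did. Pdgfra was at 84.7, 0.909 and 27.6 CPM in tumors 102, 107 and 116 and at 11.5, 17.5 and 3.21 CPM in tumors 157, 158 and 167, and its r with Dcn was 0.99. By the same measure the genes most like Dcn were Slc25a33 (r = 0.999), Pdgfra and Slc4a4 (r = 0.977), and those most like Lum were Stard5 (0.992), Limch1 (0.979) and Plekhg1 (0.969). These values, here and below, are the highest in a search of the 13139 tested genes with a mean of at least 1 CPM. They rank genes over 6 tumors and carry no test. A high r does not give the size of a difference. Slc25a33 ran only from 2.95 CPM in tumor 107 to 7.23 in tumor 102, where Dcn spanned 73.9-fold. Sums of marker levels here are over all matched genes of a list, also those below the filter. The 16 fibroblast markers, of which 14 were tested, summed to 994, 575 and 776 CPM in tumors 102, 107 and 116 and to 1020, 875 and 539 CPM in tumors 157, 158 and 167. The lowest tumor of each group was again 107 or 167, but the range of the sum was far narrower than that of Dcn, and Thy1, another fibroblast marker, was at 27.5 CPM in tumor 107 and 11.7 in tumor 102. Tcf21 was at 0 in all 6 tumors. The part of the fibroblast content in the levels of Dcn and Lum was not tested.

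Biglycan, the class I relative of decorin with a pair of sugar chains, did not follow it. Bgn was at 65.4, 95.5 and 49.7 CPM in tumors 102, 107 and 116, and at 140, 249 and 26.2 CPM in tumors 157, 158 and 167. Both the highest and the lowest tumor were younger ones, 9.52-fold apart. The means were 70.2 ± 23.3 CPM (SD, n = 3) in older and 138 ± 111 CPM (SD, n = 3) in younger tumors, and the log2 fold change was -0.98 (standard error 0.69). It ran from -0.24 without tumor 158 to -1.48 without tumor 167, and in the absence of tumor 167 all older tumors lay below both younger ones. In that setting 12.1% of all genes tested were lower in every older tumor. The r of Bgn with Dcn was 0.13 and the rho was -0.03. The genes most like Bgn were Chst2 (r = 0.995), Fastk (0.994) and Neurl2 (0.989).

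Asporin, a class I protein with a run of aspartates that lacks the usual sugar chain, was the only member without overlap between the groups. Aspn was at 2.75, 3.64 and 4.21 CPM in tumors 102, 107 and 116, and at 7.25, 9.41 and 5.68 CPM in tumors 157, 158 and 167. Every older tumor was below every younger one. The counts were low, at 8, 16 and 21 in the older and 41, 52 and 23 in the younger tumors. The means were 3.53 ± 0.731 CPM (SD, n = 3) in older and 7.44 ± 1.87 CPM (SD, n = 3) in younger tumors. The log2 fold change was -1.06 (standard error 0.42), between -0.85 and -1.23 with any 1 tumor left out. Among the 8 measured members, 1 was lower in every older tumor and 0 were higher in every older tumor, where 5.58% of all genes tested were lower and 6.51% higher in this way. The within-group SD of log2 CPM of Aspn was 0.31, at percentile 29.3. C3h9orf78 (r = 0.989), Ptges2 (0.986) and Nherf2 (0.985) were most like it.

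The immune markers were without overlap between the age groups, and single markers of other cell types were too. Of all genes tested, 6.51% were higher and 5.58% lower in every older tumor. All 7 tested immune markers of 10 listed were higher in every older tumor than in every younger one, and the list summed to between 233 and 783 CPM in older and 108 and 165 CPM in younger tumors, with Ptprc, the pan-leukocyte marker, at 222 ± 127 and 46.9 ± 14.4 CPM (SD, n = 3 each). None of the 7 passed an adjusted p of 0.05 in edgeR (0% of all genes tested), 7 had an unadjusted p under 0.05 (8.59% of all genes), and DESeq2 called 4 (2.49% of all genes). The 10 adipocyte markers summed to between 287 and 751 CPM in older and 87.1 and 265 CPM in younger tumors, but that sum rested on Lpl, the 1 of 7 tested adipocyte markers that was higher in every older tumor. Without Lpl the sums were 232, 55 and 26 CPM in tumors 102, 107 and 116 and 30.9, 51.4 and 14.8 CPM in tumors 157, 158 and 167, and the groups overlapped. The epithelial markers summed to between 1610 and 1780 CPM in older and 2080 and 2310 CPM in younger tumors, with 3 of the 9 tested lower in every older tumor. Their part in the level of Aspn was not tested.

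Fibromodulin and prolargin, neighbours in the genome and both class II proteins that bind fibrillar collagen, were both lowest in tumor 102, where decorin was highest. Fmod was at 11.4, 82.1 and 21.2 CPM in tumors 102, 107 and 116, and at 91.9, 99.3 and 43.9 CPM in tumors 157, 158 and 167. Older tumors 102 and 116 were below all younger ones, and tumor 107 was among them. The means were 38.2 ± 38.3 CPM (SD, n = 3) in older and 78.4 ± 30.1 CPM (SD, n = 3) in younger tumors, and the log2 fold change of -1.03 (standard error 0.69) became -2.26 without tumor 107 and -0.62 without tumor 102.

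Prelp was at 15.1, 59.1 and 37.8 CPM in tumors 102, 107 and 116, and at 49.3, 37.6 and 31.6 CPM in tumors 157, 158 and 167. Tumor 102 was lowest and tumor 107 highest, and the younger tumors lay between. The means were 37.4 ± 22 CPM (SD, n = 3) in older and 39.5 ± 9.01 CPM (SD, n = 3) in younger tumors. The log2 fold change of -0.08 (standard error 0.47) changed sign to 0.29 without tumor 102 and to 0.11 without tumor 157, and was -0.57 without tumor 107. Over the 6 tumors Fmod and Prelp had an r of 0.81 and a rho of 0.49, and r was 0.59 without tumors 102 and 116.

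The basal keratin gene Krt5, a marker of myoepithelial cells, was also lowest in tumors 102 and 116. Krt5 was at 42.3, 315 and 201 CPM in tumors 102, 107 and 116 and at 737, 399 and 279 CPM in tumors 157, 158 and 167. The myoepithelial markers, 6 of 8 tested, summed to 595, 2590 and 884 CPM in the older and 2750, 2130 and 1960 CPM in the younger tumors, and the pericyte and smooth muscle markers, 10 of 10 tested and sharing Acta2 and Cnn1 with them, to 736, 2960 and 635 CPM and to 2370, 1800 and 1810 CPM. Tumors 102 and 116 were thus lowest in both lists, as for Fmod, and no marker of either list was at 0 in all tumors. The part of these cells in the levels of Fmod and Prelp was not tested. The genes most like Fmod were Rprd1b (r = 0.993), Dact3 (0.989) and Cog7 (0.989), and those most like Prelp were Amotl1 (0.998), LOC683313 (0.992) and Med24 (0.986).

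**Figure D2:**
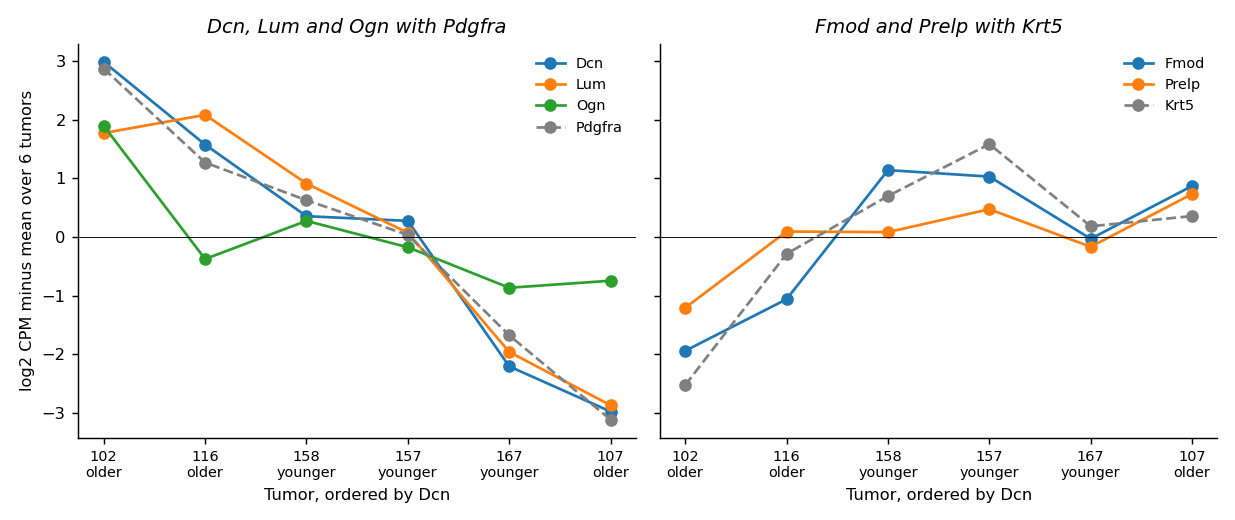
Log2 CPM of each gene minus its mean over the 6 tumors, with tumors ordered from the highest to the lowest Dcn and labelled by age group. On the left Dcn and the fibroblast receptor gene Pdgfra (dashed) descend from tumor 102 to tumor 107, Lum is highest in tumor 116 (27 CPM against 21.7 in tumor 102) and descends from there, and Ogn is high in tumor 102 only, and on the right Fmod, Prelp and the basal keratin gene Krt5 (dashed) are lowest in tumor 102.

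Osteomodulin and osteoglycin, neighbours in the genome first known from bone, parted in tumor 102. Ogn was at 39.2, 5.91 and 7.81 CPM in tumors 102, 107 and 116, and at 9.02, 12.5 and 5.43 CPM in tumors 157, 158 and 167. Tumor 102 alone was above the rest, and the other older tumors lay among the younger ones. The means were 17.7 ± 18.7 CPM (SD, n = 3) in older and 8.98 ± 3.53 CPM (SD, n = 3) in younger tumors, and the log2 fold change of 0.95 (standard error 0.75) turned to -0.4 without tumor 102.

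Omd was at 1.03, 3.18 and 5.81 CPM in tumors 102, 107 and 116, and at 6.36, 3.62 and 3.21 CPM in tumors 157, 158 and 167. Tumor 102, the highest for Ogn, was the lowest for Omd, with 3 counts, which is the floor. The means were 3.34 ± 2.39 CPM (SD, n = 3) in older and 4.4 ± 1.72 CPM (SD, n = 3) in younger tumors, and the log2 fold change of -0.36 (standard error 0.64) was 0.03 without tumor 102 and -1.02 without tumor 116. The r of Omd with Ogn was -0.72, the rho was -0.09, and r was 0.27 without tumors 102 and 157. Aspn, the neighbour on the other side of Omd, had an r of 0.59 and a rho of 0.71 with it, and r was 0.44 without tumors 102 and 158. The genes most like Ogn were Tmem252 (r = 0.996), Zfp36l2 (0.995) and Atp6v1c2 (0.994), and those most like Omd were Fancd2 (0.995), Cdca8 (0.995) and Traip (0.993).

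The markers of cartilage, bone and tendon, of which 6 of 12 had enough counts to be tested, summed to between 217 and 281 CPM in older and 240 and 1060 CPM in younger tumors. The endothelial markers, 9 of 10 matched and tested, summed to between 131 and 462 CPM in older and 88.9 and 370 CPM in younger tumors, and skeletal muscle markers, 4 of 10 tested, to between 8.61 and 75.2 CPM and 24.2 and 30.9 CPM. These groups overlapped.

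**Figure D3:**
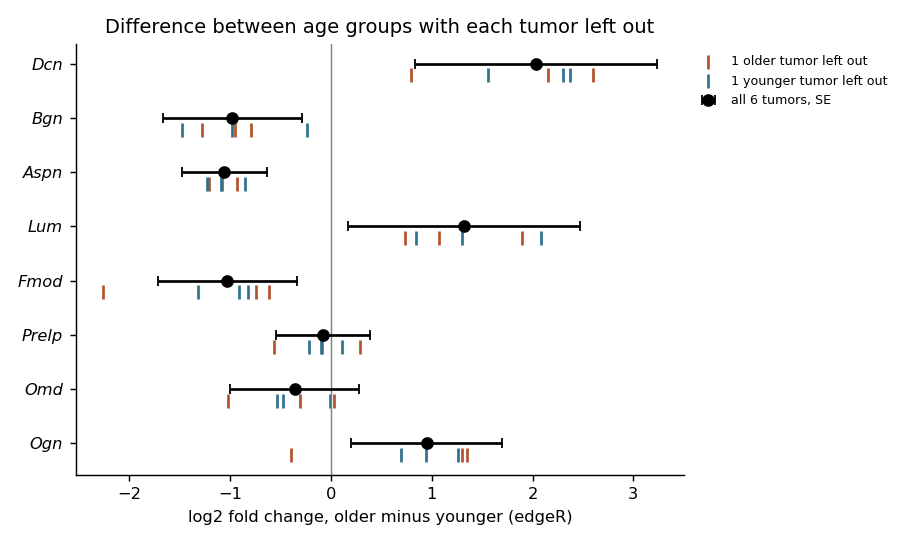
Log2 fold change, older minus younger, of each member from edgeR with all 6 tumors (black point with its standard error) and with each tumor left out (ticks below, coloured by the group of the missing tumor). Aspn stays between -0.85 and -1.23, whereas the ticks of Prelp, Omd and Ogn lie on both sides of 0.

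Taken over the family, the members did not share a direction. By the sign of the fitted value 3 members (Dcn, Lum and Ogn) were higher and 5 were lower in older tumors, and the median log2 fold change was -0.22 beside a median of 0 over all genes tested. Without tumor 157 the median was 0.05 and without tumor 107 it was -0.44. Summed over the 8 genes, the counts were 943, 1109 and 1083 in tumors 102, 107 and 116 and 1900, 2488 and 492 in tumors 157, 158 and 167, which is 325, 252 and 217 CPM and 336, 450 and 121 CPM. The younger group held the highest and the lowest sum.

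The make-up of that sum varied widely among the older tumors. Dcn took 51.7% of the summed member counts in tumor 102 (exact binomial 95% interval 48.5 to 55), 0.902% in tumor 107 (0.433 to 1.65) and 29.2% in tumor 116 (26.5 to 32). In tumors 157, 158 and 167 it took 7.58% (6.43 to 8.86), 5.95% (5.05 to 6.95) and 3.46% (2.03 to 5.47), with overlapping intervals. These intervals cover counting error only, with reads taken as independent. The mean share was 27.3% ± 25.5 (SD, n = 3) in older and 5.66% ± 2.08 (SD, n = 3) in younger tumors, a difference of 21.6 percentage points that was 9.38 without tumor 102 and 34.8 without tumor 107.

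Fibromodulin took its smallest share in tumor 102, where decorin took its largest. Fmod held 3.5% (2.42 to 4.88), 32.6% and 9.79% of the counts in tumors 102, 107 and 116, and 27.4%, 22.1% and 36.2% in tumors 157, 158 and 167. Bgn held 20.1%, 37.9% and 22.9% in the older tumors and 41.7%, 55.3% and 21.5% in the younger ones. On the log2 scale the ratio of Bgn to Dcn counts was -1.36, 5.32 and -0.35 in tumors 102, 107 and 116 and 2.46, 3.21 and 2.61 in tumors 157, 158 and 167, so that the younger tumors lay close together and the older ones on both sides of them. The ratio of Fmod to Dcn counts was arranged alike, at -3.87, 5.11 and -1.57 in older and 1.85, 1.89 and 3.35 in younger tumors. Such ratios hold the unknown lengths of both genes and are read between tumors only.

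**Figure D4:**
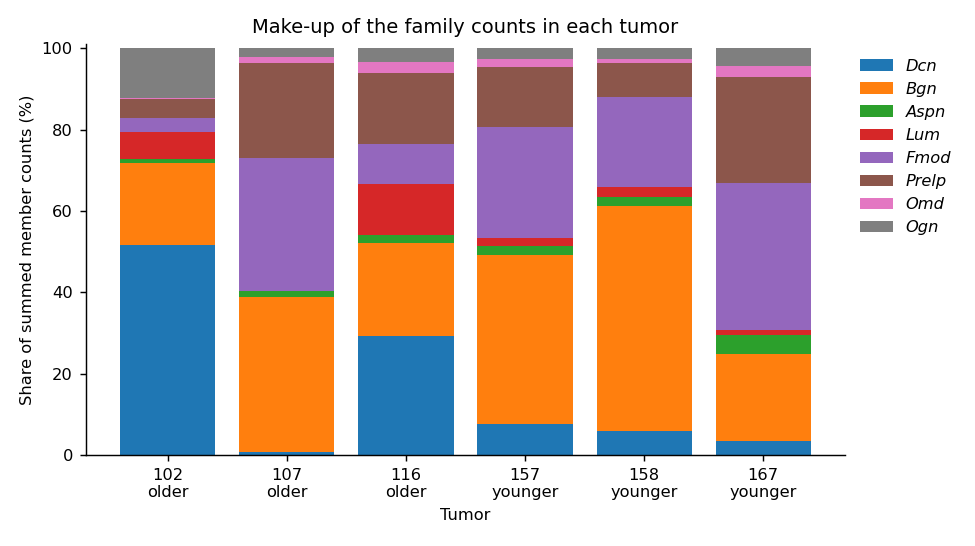
Share in percent of each member in the summed counts of the 8 measured genes, 1 stacked bar per tumor, labelled by tumor and age group. Dcn takes 51.7% in tumor 102 and 0.902% in tumor 107, both older, and between 3.46% and 7.58% in the younger tumors.

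Set against the fibroblast markers of the same tumor, the difference between the group means of the family was within the spread of the older tumors. The mean log2 CPM of the 8 members minus that of the 14 tested fibroblast markers was -0.65, 0 and 0.45 in tumors 102, 107 and 116 and 0.06, 0.1 and -0.04 in tumors 157, 158 and 167. The means were -0.07 ± 0.55 (SD, n = 3) and 0.04 ± 0.08 (SD, n = 3), a difference of -0.11 that became 0.33 when collagen genes were the reference and 0.18 without tumor 102. The genes most like the mean of the members were Cilp (r = 0.989), Elac2 (0.984), Rcc2 (0.983), Gch1 (0.982) and Homer3 (0.975).

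The rest of the pathway was read from 10 lists with 144 genes, of which 122 were tested. By edgeR (quasi-likelihood F test, Benjamini-Hochberg adjusted over all genes), 0 of the 122 passed an adjusted p of 0.05, as did 0% of all genes tested, and the smallest adjusted p among them was 0.267. Without adjustment 27 of the 122 had a p under 0.05, 15 higher and 12 lower in older tumors, beside 1128 of all 13139 genes (8.59%). DESeq2 called 14, 8 higher and 6 lower, beside 326 of 13104 genes (2.49%), and limma-voom called 0. The same shares of all genes, 8.59% and 2.49%, apply beside the counts of each list below. The lists were chosen with earlier results of these data known, so these counts are a description. For 3 of the 122 genes DESeq2 gave no adjusted p. In every older tumor 10 of the 122 were higher and 11 lower than in every younger one, beside 6.51% and 5.58% of all genes tested. The median log2 fold change of the 122 genes was -0.03.

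Among relatives of the family, 4 of 9 listed genes were tested, with 0 called by edgeR and 1 with an unadjusted p under 0.05. DESeq2 called 0 of them and gave no adjusted p for Chad. Chad (chondroadherin), a cartilage protein of leucine-rich repeats, had 17, 1417 and 15 counts in tumors 102, 107 and 116 and 24, 49 and 9 in tumors 157, 158 and 167, so that 1 tumor, 107, stood apart (log2 fold change 4.41, standard error 1.69, edgeR adjusted p = 0.511). Tsku (tsukushi) was also highest in tumor 107, with 625 counts against 34 to 187 elsewhere (log2 fold change 1.49, standard error 0.81, edgeR adjusted p = 0.717). Kera (keratocan) and Epyc (epiphycan) had 0 counts in every tumor, and a count of 0 allows a level up to the floor.

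The enzymes that build and modify the sugar chains held genes on both sides. Of the linker and chain enzymes 18 of 19 were tested, and edgeR called 0, with 3 at an unadjusted p under 0.05 and 2 called by DESeq2. Csgalnact1, which starts chondroitin sulfate chains, was at 2.67 ± 0.377 CPM in older and 10.2 ± 2.91 CPM in younger tumors (SD, n = 3 each), with adjusted p values of 0.271 in edgeR and 0.013 in DESeq2. Papss2, which makes the sulfate donor, was at 36.2 ± 40.9 and 5.95 ± 1.74 CPM (adjusted p 0.391 in edgeR and 0.0366 in DESeq2). Fam20b and B3gat3, which act on the linker, had log2 fold changes of 0.11 (standard error 0.26) and 0.14 (standard error 0.24). Of the dermatan and chondroitin modifying enzymes 8 of 10 were tested, with 0 called by edgeR, 1 at an unadjusted p under 0.05 and 1 called by DESeq2. That gene was Dse, the epimerase that turns chondroitin into dermatan sulfate, at 16.4 ± 7.99 CPM in older and 4.22 ± 0.526 CPM in younger tumors (adjusted p 0.31 in edgeR and 0.0121 in DESeq2). The keratan sulfate list, 8 of 10 tested, gave the same counts of calls. B3gnt7, which extends keratan sulfate, was at 10.5 ± 3.44 and 2.63 ± 0.578 CPM (adjusted p 0.281 in edgeR and 0.0119 in DESeq2).

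All 14 fibrillar, fibril-associated or beaded collagens, the partners of these proteins, were tested, with 0 called by edgeR, 1 at an unadjusted p under 0.05 and 1 called by DESeq2, and their median log2 fold change was -0.37. The gene called was Col2a1, the collagen of cartilage, at 45.6 ± 31.4 CPM in older and 351 ± 415 CPM in younger tumors (adjusted p 0.433 in edgeR and 0.0288 in DESeq2). Col1a1, the main collagen of stroma, was at 257 ± 205 and 330 ± 241 CPM (log2 fold change -0.37, standard error 0.84), and Col14a1, a fibril-associated collagen, was at 469 ± 360 and 412 ± 89.6 CPM (log2 fold change 0.19, standard error 0.57).

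Among collagen processing and crosslinking genes, 16 of 18 were tested, with 0 called by edgeR, 4 at an unadjusted p under 0.05 and 3 called by DESeq2. Adamts14, which cleaves the ends of procollagen, was at 18.5 ± 4.93 CPM in older and 1.01 ± 1.17 CPM in younger tumors (log2 fold change 4.13, standard error 0.91, adjusted p 0.271 in edgeR and 7.99e-05 in DESeq2). Loxl2, a crosslinking enzyme, was at 26.4 ± 6.74 and 58.4 ± 8.08 CPM (adjusted p 0.315 in edgeR and 0.0236 in DESeq2). Neither gene overlapped between the groups, where 6.51% of all genes tested were higher and 5.58% lower in every older tumor. Adamts14 was at 2.3, 0 and 0.741 CPM in tumors 157, 158 and 167, at or under the floor in tumors 158 and 167.

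Proteases known to cleave these proteoglycans or their collagens were tested for 15 of 16 genes, with 0 called by edgeR, 5 at an unadjusted p under 0.05 and 3 called by DESeq2. Mmp7, a metalloproteinase of epithelial cells, was at 4.44 ± 1.23 CPM in older and 0.299 ± 0.275 CPM in younger tumors, the latter under the floor (adjusted p 0.267 in edgeR and 0.00711 in DESeq2). Tll1, a tolloid protease, was at 3.77 ± 4.03 and 32.1 ± 11 CPM (adjusted p 0.326 in edgeR and 0.00503 in DESeq2). For Mmp14, a membrane-bound collagenase, the log2 fold change was -0.19 (standard error 0.3).

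Growth factors and receptors that the family binds included the insulin-like growth factor pair. Of the growth factors 10 of 15 were tested and of the receptors 14 of 15, with 0 called by edgeR, 3 at an unadjusted p under 0.05 and 1 called by DESeq2 in each list. Igf1 was at 46.9 ± 30.7 CPM in older and 10 ± 0.561 CPM in younger tumors (log2 fold change 2.22, standard error 0.58, adjusted p 0.33 in edgeR and 0.0157 in DESeq2). Its receptor gene Igf1r, to which decorin binds, was at 75.1 ± 30.4 and 16.9 ± 11.1 CPM (log2 fold change 2.16, standard error 0.59, adjusted p 0.342 in edgeR and 0.0208 in DESeq2). Both were higher in every older tumor than in every younger one, as were 6.51% of all genes tested. Met, another decorin receptor, was at 198 ± 114 and 64.1 ± 7.4 CPM (adjusted p 0.376 in edgeR and 0.0666 in DESeq2), and Tgfb3, a growth factor of the family that decorin and biglycan bind, was at 212 ± 160 and 577 ± 605 CPM.

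Of the proteoglycans outside the family 17 of 20 were tested, with 0 called by edgeR, 6 at an unadjusted p under 0.05 and 2 called by DESeq2. Sdc1 (syndecan), a heparan sulfate proteoglycan of epithelial cells, was at 93.2 ± 24.1 CPM in older and 213 ± 51.4 CPM in younger tumors (log2 fold change -1.19, standard error 0.3, adjusted p 0.315 in edgeR and 0.0268 in DESeq2). Ncan (neurocan) was at 2.95 ± 0.872 and 20.8 ± 16.3 CPM (adjusted p 0.326 in edgeR and 0.00912 in DESeq2). The log2 fold change of Hspg2 (perlecan), of basement membranes, was -0.98 (standard error 0.67), and that of Sdc4, another syndecan, 0.12 (standard error 0.36).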

How the data were processed

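The authors trimmed reads, aligned them with STAR, counted reads per gene with HTSeq (0.13.5 and build mRatBN7.2 in the submitters' processing notes, which also list DESeq2 with no version) and deposited the counts of 6 tumors in a single table, without normalization. The molecule is labelled polyA with a read length of 100, whereas ribosomal RNA depletion and paired reads of 150 bases stand in the protocol. Of 30562 rows, 4367 without a gene name, between 2.17% and 3.64% of a tumor's counts, were left out of library sizes and tests.

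The fit used edgeR 4.0.16 under R 4.3.3. Genes were kept by filterByExpr, libraries were scaled by TMM (factors from 0.861 to 1.127), and age groups were compared without covariates with the quasi-likelihood F test at a Benjamini-Hochberg adjusted p of 0.05. Log2 CPM used a prior count of 2, and ratios of counts a pseudocount of 0.5. With 3 tumors against 3, the smallest two-sided p of an exact permutation test is 0.1. The edgeR fit was tested on simulated data, with changes planted only in genes of higher mean count than Aspn or Omd. That run therefore does not cover genes with counts as low as theirs. Alternatives were DESeq2 1.42.0, limma 3.58.1 (voom), other scalings and filters, another reference list and leaving out each tumor.

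The family members, gene lists and tests were chosen with earlier results of these data known. Named genes were all members, the 2 tested genes with the smallest p and the 2 with the highest mean CPM of each list, and the genes most correlated with each member or the member mean among those with a mean of at least 1 CPM. The list genes printed were picked from these after seeing values, and Thy1, Tcf21, Kera and Epyc were added outside the rule. Promoters and gene order came from RefSeq (GRCr8), and no table of proteins was at hand.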

Additional observations from a re-analysis of the deposited data

How the results depend on the processing

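Under the other scalings, filters and tools, no member's log2 fold change changed sign, and the median over members stayed between -0.34 and -0.08. Dcn ran from 0.76 (limma-voom) to 2.04, Lum from 0.35 to 1.38, Ogn from 0.31 to 0.96, Bgn from -1.01 to -0.52, Fmod from -1.36 to -1.03, Prelp from -0.2 to -0.08, Omd from -0.48 to -0.36 and Aspn from -1.08 to -1.02. Aspn, Lum and Omd gave no value when at least 10 counts were required in every tumor. Leaving out each tumor in turn gave log2 fold changes from 0.79 to 2.6 for Dcn, 0.73 to 2.08 for Lum, -0.4 to 1.35 for Ogn, -1.48 to -0.24 for Bgn, -2.26 to -0.62 for Fmod, -0.57 to 0.29 for Prelp, -1.02 to 0.03 for Omd and -1.23 to -0.85 for Aspn, and a median from -0.44 to 0.05.

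Without 1 tumor, between 0 and 2 members were higher in every older tumor (Dcn and Lum without tumor 107) and between 1 and 3 were lower (Bgn, Aspn and Fmod without tumor 167). Of all genes tested, 11% were higher in this way without tumor 107 and 12.1% lower without tumor 167. The older minus younger share of the summed member counts ran from 9.38 to 34.8 percentage points for Dcn, -21.6 to -4.67 for Bgn, -2.01 to -0.714 for Aspn, 1.59 to 7.73 for Lum, -21.9 to -7.37 for Fmod, -5.29 to 4.09 for Prelp, -0.99 to 0.19 for Omd and -0.337 to 4.54 for Ogn. The level relative to fibroblast markers ran from -0.37 to 0.18 without 1 tumor and was 0.33 with collagens as the reference. Genes of the pathway lists past an adjusted p of 0.05 numbered 14 with DESeq2 and 0 with limma-voom, with edgeR under the other settings and with each tumor left out, and the cause was not tested. Keeping rows without a gene name was an alternative chosen after seeing the data. No paired analysis was possible because the age groups share no tumor numbers. Depth limits Lum, Omd and Aspn most, which had 2, 3 and 8 counts in their lowest tumors.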
